A study of Mus musculus with 2 samples.

Results

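The genes described here are 10 interferon gamma-induced GTPases of mouse colon epithelial cells, 5 immunity-related GTPases (IRG genes Iigp1, Ifi47, Igtp, Irgm2 and Irgm1) and 5 guanylate-binding proteins (GBP genes Gbp2b, Gbp2, Gbp7, Gbp3 and Gbp8). They were chosen by gene symbol with earlier results of the same arrays in view, including the low signal of Iigp1 with MIF, so their differences are given as a description. All 10 were found, on 13 of the 15340 probe sets of the table, which held 8721 singly named genes. The cells came from C57BL/6 mice, an inbred strain, 7 weeks old, and no genetic alteration is named in the labels. One sample of cells was incubated with MIF, taken here to be the cytokine macrophage migration inhibitory factor, and the other with PBS, a buffered salt solution. RNA of each was hybridised to 1 Affymetrix array, so there are no replicates, no test and no spread between samples. With 1 array for each incubation, the precision of a value cannot be estimated.

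Interferon gamma binds its receptor on the cell surface and acts on genes through GAS elements in their promoters. It also induces IRF1, a factor that binds interferon response elements, and both kinds of element drive transcription of IRG and GBP genes. The products are GTPases that gather on vacuoles and bacteria inside the cell and help to destroy the compartment. Among IRG proteins, effectors coat the vacuole of the pathogen, whereas the IRGM subfamily sits on the membranes of the cell itself and keeps the effectors inactive there. GBP proteins are larger, and some carry a lipid anchor that fixes them to membranes. In the gut they are known for defence against intracellular pathogens.

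Of the 9 members that could be assessed, 8 had lower signals after MIF and 1 was higher. The median log2 difference (MIF minus PBS) was -0.27, against -0.01 over the 5837 assessed genes. The effector gene Iigp1 differed most, by about 2-fold. Ifi47, Gbp2b, Igtp, Gbp2 and Irgm2 were between 1.2-fold and 1.34-fold lower, and Irgm1 had nearly equal signals on both arrays. A gene was assessed if its brightest probe set exceeded a signal floor of 232, the 40th percentile of all signals, on at least 1 array.

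**Figure D1:**
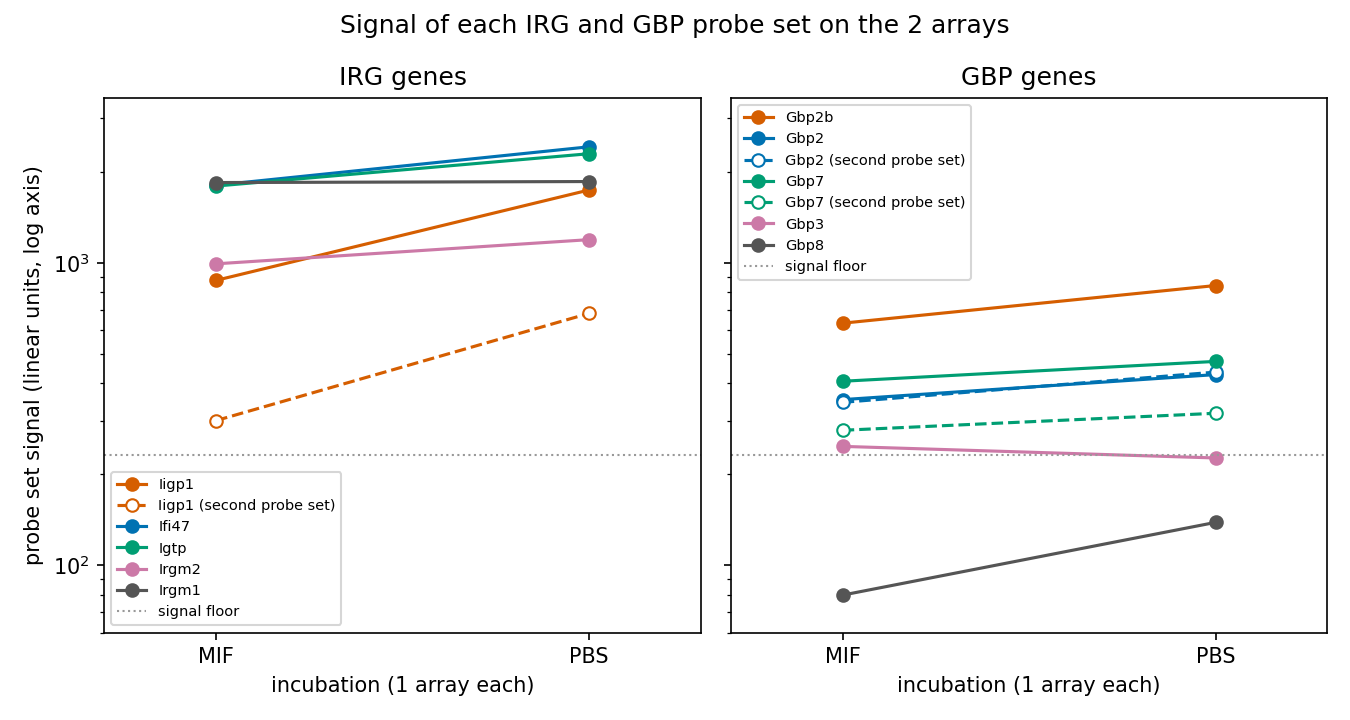
Signal of each probe set of the IRG genes (left) and GBP genes (right) on the MIF array and the PBS array, with a logarithmic vertical axis in linear signal units. Points are single arrays, lines join the same probe set, dashed lines are second probe sets, and the dotted line is the signal floor of 232. Both Iigp1 lines have the steepest slopes among IRG genes, Irgm1 is flat at 1840 and 1854, and Gbp8 lies under the floor on both arrays.

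Iigp1, also called Irga6, is an effector that is among the IRG proteins loaded onto the vacuole of Toxoplasma gondii. Its brighter probe set had a signal of 874 on the MIF array and 1739 on the PBS array. The other probe set had 301 with MIF and 680 with PBS. Both were therefore lower with MIF, by 1.99-fold and 2.26-fold, or -0.99 and -1.18 on the log2 scale. Over 1800 genes with 2 or more probe sets above the floor, the SD between probe sets of 1 gene was 0.14. The median range between them was 0.15, with a 90th percentile of 0.38. The 2 probe sets of Iigp1 differed from each other by 0.18. Both probe sets read 1 RNA sample, so this is not a measure of the spread between cell preparations. Among the 5837 assessed genes, Iigp1 held rank 6 from the lowest difference.

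A further probe set points the same way but has no single name. The annotation ties it to 2 near-identical IRG genes of the effector group, and their signals cannot be separated. Both are named T-cell-specific GTPase, a name that does not show which cells gave the signal here. It read 937 on the MIF array and 1971 on the PBS array, 2.10-fold lower. That was rank 5 from the lowest among 9438 assessed probe sets, and it is not counted among the 10 members.

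Ifi47, also called Irgd, belongs to the same effector group. Its signal was 1803 with MIF and 2415 with PBS, 1.34-fold lower (log2 difference -0.42, rank 93). This was less than the difference of Iigp1 on either of its probe sets.

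The 3 members of the regulatory IRGM subfamily were not alike. Igtp, also called Irgm3, which resides mainly on the endoplasmic reticulum, had 1792 with MIF and 2291 with PBS. It was 1.28-fold lower (-0.35, rank 163). Irgm2, a protein of the Golgi region, had 992 with MIF and 1192 with PBS, just over 1.2-fold lower (-0.27, rank 357). Irgm1, which protects against mycobacteria and controls the other IRG proteins, had 1840 with MIF and 1854 with PBS. Its log2 difference of -0.01 lay at the median of all assessed genes. Each of these 3 genes was read by a single probe set.

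The GBP genes differed less than Iigp1. Gbp2b, the gene called Gbp1 in older mouse annotation, encodes a GTPase that binds to vacuoles of pathogens. Its signal was 631 with MIF and 841 with PBS, 1.33-fold lower (-0.41, rank 102). Gbp2, a lipid-anchored protein that restricts Toxoplasma gondii, was read by 2 probe sets. They gave 353 and 346 with MIF, against 427 and 435 with PBS, 1.21-fold and 1.26-fold lower. The second of these can cross-hybridise by its name, and the pair differed by 0.06 on the log2 scale. Gbp7, which takes part in assembling the NADPH oxidase in phagocytes, also had 2 probe sets. They gave 406 and 280 with MIF, against 472 and 318 with PBS, 1.16-fold and 1.14-fold lower.

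The 2 remaining GBP genes were near or under the floor. Gbp3 had a signal of 247 with MIF and 226 with PBS, and since the PBS value was under the floor, it was at least 1.07-fold higher. It was the only assessed member that was not lower, and its values lie where the order of signals is least certain. Gbp8 read 79.8 with MIF and 139 with PBS, both under the floor, so no difference was assigned to it. Of 17 other listed IRG and GBP genes, the table held only Gbp6 under a single name. Its signal was 184 with MIF, under the floor, and 328 with PBS. It was at least 1.41-fold lower.

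These counts were read against all genes. At 1.5-fold, 1 of 9 assessed members was lower, against 0.463% of all assessed genes (27 of 5837). At 1.2-fold, 6 of 9 were lower, against 6.29% of all (367 genes). At 2-fold, 0 of 9 were lower, against 0.0857% of all. The Iigp1 value lay just short of 2-fold and passed it after median centring (-1.03) and with its probe sets averaged (-1.08), and the second Iigp1 probe set and the unnamed IRG probe set also passed it. Lower by any amount were 8 of 9 members, against 53.3% of all. These 8 include Irgm1, at -0.01, which was slightly above 0 after quantile normalization (0.007) and after removal of a loess trend (0.003). Without Iigp1, the members' median was still -0.27, with 5 of 8 at least 1.2-fold lower. Since the members were picked with these arrays known, and members of 1 pathway can vary together, the counts show how the 2 arrays differ and not how often other preparations would.

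The spread among genes of like brightness gives a second scale. Genes above the floor on both arrays were put into 4 nearly equal groups by mean signal, and the central 95% of log2 differences was taken in each. In the brightest group it began at -0.31, and Ifi47 and Igtp lay below it whereas Irgm1 lay inside. In the next group it began at -0.36, with Iigp1 below and Irgm2 inside. In the third it began at -0.39, with Gbp2b just below, and in the dimmest at -0.37, with Gbp2 and Gbp7 inside. Thus 4 of the 8 members measured above the floor on both arrays lay below the range of their group, and 4 lay within it. By construction, 95% of all genes of a group lie within its range, and the rest are split equally between both ends.

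**Figure D2:**
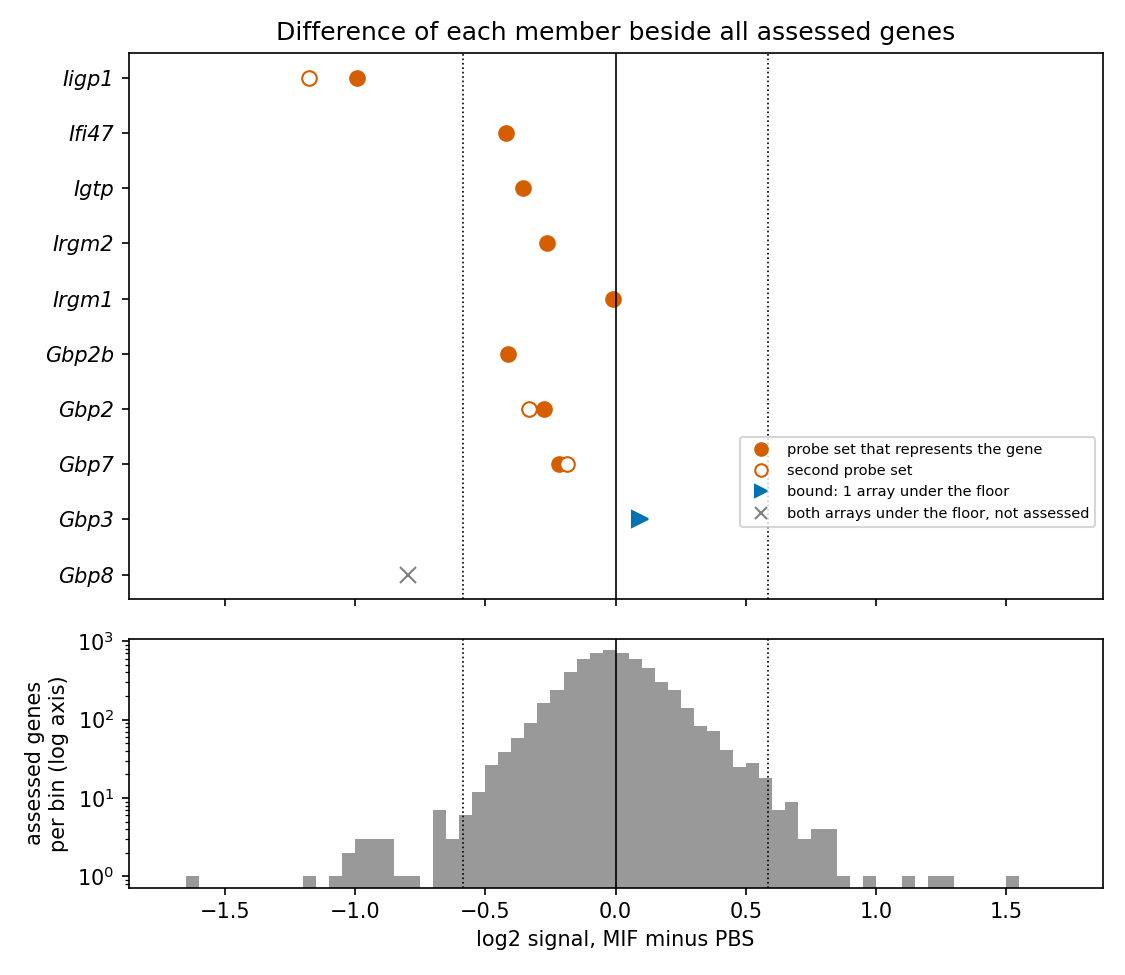
Log2 difference in signal, MIF minus PBS, of each member (top) and the number of assessed genes per bin of 0.05 (bottom, logarithmic vertical axis). Filled circles are the probe sets that represent a gene, open circles second probe sets, the triangle a bound and the cross a gene that neither array measured above the floor, with dotted lines at 1.5-fold. Iigp1, at -0.99 and -1.18, is the only assessed member beyond the left dotted line.

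Promoter sequences of the members are shown because IRG and GBP genes are known to be driven through GAS and interferon response elements. RefSeq windows of GRCm38.p6, 250 bases before to 50 after the start, were found for 8 of the 10 members in 9 windows, Gbp3 having 2 starts. Iigp1 and Gbp8 were not matched. The search used the GAS letters TTCNNNGAA, which read alike on both strands, and the interferon response core GAAANNGAA on either strand. A GAS match was present in 3 members (Igtp, Irgm2 and Gbp7), and 8.30% of all 32851 windows of this length held one. The interferon response core was present in 7 of 8, Ifi47 being the exception, and 8.56% of all windows held it. Both were present in the 3 members with a GAS match and in 1.07% of all windows. A match is a run of letters and not a measured binding site, and the absence of one says only that these letters are not in this window.

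The stretches below run from 150 bases to 1 base before the annotated start, 5′ to 3′ on the strand of the gene, with matches in capitals. Igtp and Irgm2 are shown as a pair of the IRGM subfamily with lower signals, and Irgm1 as the member with nearly equal signals. Gbp2b, Gbp2 and Gbp7 are shown as the 3 GBP genes above the floor on both arrays. The Ifi47 window, which held neither match, is not printed, although Ifi47 was 1.34-fold lower with MIF. A link between matches and differences was not tested. They lie at chr11:58199406-58199555 (Igtp, plus strand), chr11:58214827-58214976 (Irgm2, plus strand), chr11:48871421-48871570 (Irgm1, minus strand), chr3:142594697-142594846 (Gbp2b, plus strand), chr3:142620513-142620662 (Gbp2, plus strand) and chr3:142530186-142530335 (Gbp7, plus strand).
Igtp: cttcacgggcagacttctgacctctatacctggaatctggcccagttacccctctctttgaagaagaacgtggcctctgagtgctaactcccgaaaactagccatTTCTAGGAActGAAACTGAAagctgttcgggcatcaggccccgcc
Irgm2: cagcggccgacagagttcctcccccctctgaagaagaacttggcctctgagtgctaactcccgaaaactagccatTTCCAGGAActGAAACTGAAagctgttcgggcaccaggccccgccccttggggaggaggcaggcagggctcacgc
Irgm1: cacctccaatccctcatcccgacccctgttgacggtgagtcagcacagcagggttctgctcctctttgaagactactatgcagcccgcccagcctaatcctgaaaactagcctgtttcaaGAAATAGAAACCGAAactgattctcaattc
Gbp2b: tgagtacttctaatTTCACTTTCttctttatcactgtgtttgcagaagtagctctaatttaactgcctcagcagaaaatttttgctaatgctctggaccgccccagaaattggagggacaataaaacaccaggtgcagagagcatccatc
Gbp2: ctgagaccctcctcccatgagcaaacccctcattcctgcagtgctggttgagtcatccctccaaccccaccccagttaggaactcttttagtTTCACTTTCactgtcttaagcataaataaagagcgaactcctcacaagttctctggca
Gbp7: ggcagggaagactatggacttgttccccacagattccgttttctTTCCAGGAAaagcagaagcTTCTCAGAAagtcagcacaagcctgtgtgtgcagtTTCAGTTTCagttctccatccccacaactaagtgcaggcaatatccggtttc

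The Igtp and Irgm2 windows are close copies and share an unbroken run of 61 bases, against a longest run of 11 between Igtp and Irgm1. Runs were sought over the whole windows, including the 50 bases after the start. The printed Igtp and Irgm2 stretches differ inside the GAS match and again shortly after the core, so the run of 61 holds neither match. In both windows a GAS match is followed after a short gap by the interferon response core. In Igtp the GAS match covers bases 45 to 37 before the start and the core bases 34 to 26. In Irgm2 these are bases 75 to 67 and 64 to 56. The Irgm1 window has 2 overlapping cores, from base 30 to base 16 before the start, and no GAS match. Gbp7 has 2 GAS matches and 1 core, none of which overlap, and Gbp2 and Gbp2b have 1 core each. In all 3 GBP stretches the core lies on the opposite strand.

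Other genes that interferon gamma is known to induce were also mostly lower with MIF. Of 24 assessed genes on that list, 23 were lower, 15 at least 1.2-fold and 7 at least 1.5-fold, and the median log2 difference was -0.31. H2-Ab1 and H2-Eb1, chains of MHC class II, had 2157 and 2444 with MIF, against 4213 and 4732 with PBS. Ido1, which degrades tryptophan, was under the floor with MIF at 136, against 422 with PBS, so it was at least 1.82-fold lower. H2-DMa, which helps to load class II molecules, had 590 with MIF and 1068 with PBS. The exception was Ifi35, at 879 with MIF and 590 with PBS. Several genes of this list were also known from earlier results of the same arrays.

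The genes induced chiefly by type I interferon did not show this shift. Of 16 assessed, 7 were lower and 9 higher, none by 1.2-fold in the lower direction, with a median of 0.01. The antiviral enzyme gene Rsad2 had 646 with MIF and 451 with PBS, and Ifitm3, which blocks viral entry, had 4346 with MIF and 5165 with PBS. The difference between the lists was not tested.

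In the receptor and its signalling chain, the median was -0.05, with 10 of 17 assessed genes lower and 7 higher. The receptor subunit genes Ifngr1 and Ifngr2 had log2 differences of -0.07 and 0.18, and the kinase genes Jak1 and Jak2 had 0.11 and 0.04. Irf1, the activator of many interferon gamma targets, had 2162 with MIF and 2432 with PBS, 1.13-fold lower. The largest differences of the list were in Irf2, a factor that can oppose Irf1, at 475 with MIF and 331 with PBS, and in Batf2, at 584 with MIF and 806 with PBS. Irf8 had 2352 with MIF and 3042 with PBS, 1.29-fold lower. Ifng itself read 26.0 with MIF and 40.6 with PBS, both under the floor.

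**Figure D3:**
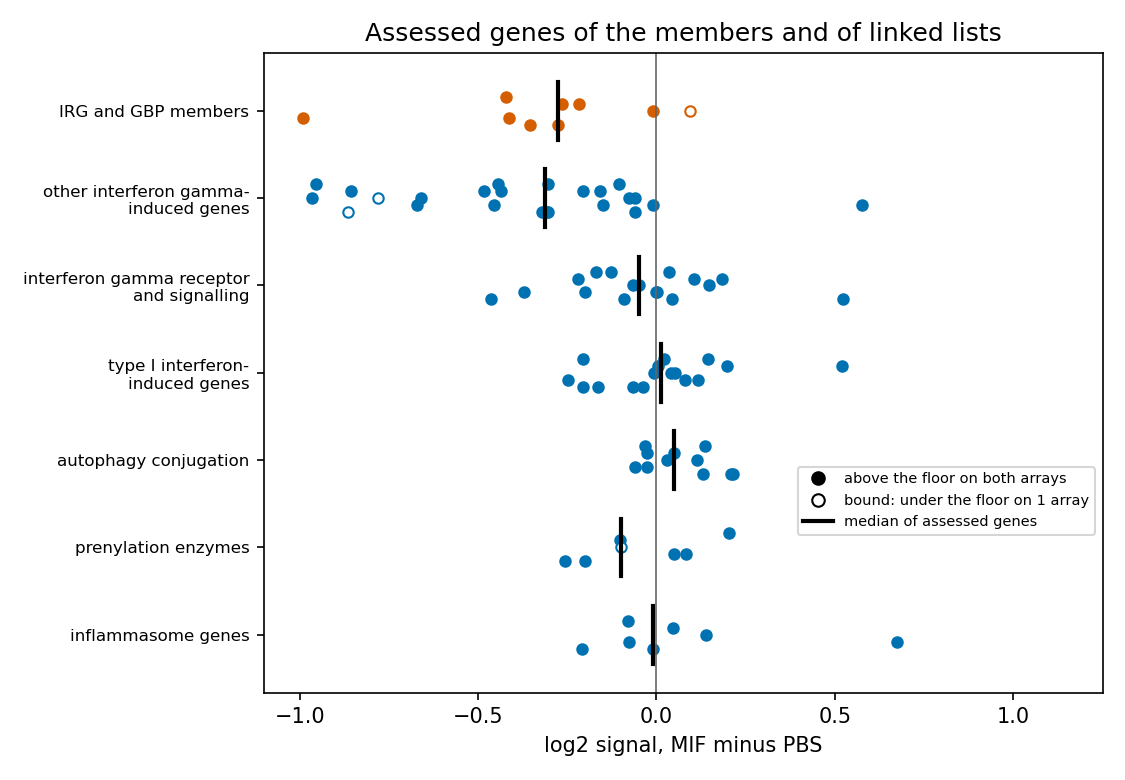
Log2 difference in signal, MIF minus PBS, of each assessed gene of the IRG and GBP members and of 6 linked lists (other interferon gamma-induced genes, receptor and signalling, type I interferon-induced genes, autophagy conjugation, prenylation and inflammasome genes). Points are genes, open points are bounds and the black bar is the median, with bounds included. The median is -0.27 for the members, -0.31 for other interferon gamma-induced genes and between -0.10 and 0.05 for the other lists drawn.

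Genes whose products IRG and GBP proteins work with had small differences. The autophagy conjugation machinery, which places the effectors on vacuoles, had a median of 0.05 over 11 assessed genes, 4 lower and 7 higher and none past 1.2-fold. Atg12 and the cargo receptor gene Sqstm1 were highest there, at 0.21 each. Prenylation attaches the lipid anchor of some GBP proteins. Enzymes of this step and of the steps before and after it had a median of -0.10 over 7 genes. That median is the bound of Fntb, which was under the floor with MIF. Over the 6 genes above the floor on both arrays, the median was -0.03. Rce1 was lowest at -0.26 and Icmt highest at 0.20, and the listed gene Pggt1b was not in the table. Ubiquitin and other regulatory partners had a median of -0.11 over 9 genes, with Trim21, under the floor with MIF, at least 1.18-fold lower and Pim1 1.15-fold lower.

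Inflammasome genes, whose products GBP proteins can help to activate, had a median of -0.01 over 7 genes. Pycard, the adaptor of several inflammasomes, was the exception at 7463 with MIF and 4681 with PBS, 1.59-fold higher. Nlrp6, a sensor of the gut epithelium, had 2109 with MIF and 2435 with PBS. Casp1 and Casp4, caspases of these pathways, had log2 differences of -0.01 and -0.08. Of the dynamin-related GTPases, 5 were assessed, with a median of -0.06. Mfn2 and Dnm1l, which act in mitochondrial fusion and fission, were both lowest at -0.15. The interferon-induced Mx1 and Mx2 were under the floor on both arrays.

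Of the genes measured above the floor with MIF and with PBS, the 5 whose log2 difference lay nearest to that of Iigp1 were Rps6, Gzma, H2-Ab1, H2-Eb1 and S100g, from -1.01 to -0.94. With 2 arrays, likeness means only an equal difference.

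Markers of cell types were read beside these results. All 15 colon epithelial markers in the table lay above the floor on both arrays, with a median log2 difference of -0.05 and a summed signal of 115701 with MIF and 119206 with PBS. The keratin gene Krt19 and the cadherin gene Cdh1 differed most among them, by -0.23 and 0.21. Of 11 T and NK cell markers in the table, Gzma and Gzmb alone were above the floor. Gzma had 403 with MIF and 813 with PBS, and Gzmb had 282 with MIF and 541 with PBS. The summed signal of these 11 was 1182 with MIF and 2049 with PBS, most of it from Gzma and Gzmb, so it was lower together with the members. Prf1 alone of the 11 was higher with MIF, at 80.0 against 40.2 with PBS, both under the floor. The defining genes Cd3g and Cd8a read 35.7 and 25.7 with MIF, against 85.9 and 28.5 with PBS, all under the floor, and no marker was at 0. T and NK cells are a source of interferon gamma, and the part of this shift in the members' differences was not tested. In a bulk sample, fewer cells of a type and less RNA per cell cannot be told apart.

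Other marker lists moved differently. The 10 macrophage and dendritic cell markers summed to 2172 with MIF and 2071 with PBS, with Cd14 and Lyz2 alone above the floor on any array. The 2 B and plasma cell markers in the table, under the floor on both arrays, summed to 42.0 with MIF and 60.6 with PBS. The 9 fibroblast and endothelial markers summed to 1932 with MIF and 778 with PBS, most of it from Dcn and Col3a1. The part of these cells in the members' values was not tested.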

How the data were processed

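Total RNA was taken up in Trizol and biotin-labelled cRNA was made for Affymetrix arrays, per the labels' protocols. The deposited table holds 1 processed signal intensity per probe set and array, on a scale that the values show to be linear. Not given in the sources used here are the summarising method, background correction, scaling, choice of the 15340 probe sets, dose, duration and number of animals.

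Columns were used as deposited, with medians of 346 (MIF) and 337 (PBS), and 61 control probe sets were left out. Names came from the platform annotation in GEO, updated by Entrez ID through the RefSeq gene table of GRCm38.p6. Of the other probe sets, 14049 had 1 symbol, 490 several and 740 none, and the last 2 kinds were left unnamed. Signals under the floor (232, the 40th percentile) were raised to it before taking log2. The probe set of highest mean log2 signal stood for its gene. Of all genes, 5545 were above the floor on both arrays, 142 under it with MIF alone, 150 under it with PBS alone, and 2884 under it on both and not assessed.

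The members and gene lists were chosen with earlier results of these data known. Every member was named, with 2 to 4 genes of the largest difference in each other list and the 5 genes nearest to the lowest member. Ifi35, Ifngr1, Ifngr2, Jak1, Jak2, Irf1, Ifng, Casp1, Casp4, Mx1, Mx2, Cd3g, Cd8a and Prf1 are outside this rule, chosen after their values were seen. The unnamed IRG probe set is outside it too, and was chosen in the same way. Alternatives were median centring, quantile normalization, floors at the 20th or 60th percentile or none, averaged probe sets, omission of the _x_at and _s_at probe sets, thresholds of 1.2-fold and 2-fold, and subtraction of a loess trend (span 0.3) of the difference on brightness. The steps were tested on simulated data. Software was pandas 2.3.3, numpy 2.4.6, matplotlib 3.10.9 and statsmodels 0.14.6 under Python 3.11.15.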

Additional observations from a re-analysis of the deposited data

How the results depend on the processing

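In all 69 values of single members under the alternatives, the log2 difference moved by less than the SD of 0.14 between probe sets of a gene. Many of these values could not move, so the count overstates how far they were tried. A member above the floor on both arrays keeps its value at any floor it still exceeds. Averaging leaves a member with 1 probe set as it was, and omission of the _x_at and _s_at probe sets changed no member's value. Iigp1 ranged from -1.08 (probe sets averaged) to -0.99 and passed 2-fold there and after median centring (-1.03), Ifi47 from -0.46 to -0.40 and Gbp3 from 0.07 to 0.13, and Irgm1 ranged from -0.05 to 0.01, so its sign is not settled. Gbp2, Gbp3 and Gbp7 were under the floor on both arrays with the floor at the 60th percentile and have no value there. The number of members at least 1.5-fold lower was 2 with the floor at the 20th percentile and 2 with no floor, where Gbp8 joined Iigp1, and it was 6 at a threshold of 1.2-fold and 0 at 2-fold, against 1 at 1.5-fold. The same count over all genes was 49 with the floor at the 20th percentile, 12 at the 60th and 198 with none, and 367 at 1.2-fold and 5 at 2-fold, against 27. No paired analysis was possible because each group has 1 array. Differences of dim genes depend on the floor, and no alternative replaces the missing replicates.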
